A study of Drosophila melanogaster with 59 samples.

Results

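Long RNA of unfertilized eggs was compared between Fab2L Red* and Fab2L White*, a pair of Drosophila melanogaster lines that carry the same transgene. All genes with an FPKM (read fragments scaled by transcript length and library depth) above 1 in at least 2 of the 4 files of these lines were taken. This rule kept 6589 of the 17558 genes in the files. The series holds 59 samples, and 16 of them are long RNA libraries, 8 of eggs and 8 of male heads. The study asks whether Polycomb-dependent chromatin states pass between generations, and eggs are where RNA carried by the mother can be read before any zygotic gene is active. The Fab2L transgene joins Fab-7, a Polycomb response element of the bithorax complex, to mini-white, an eye colour reporter.

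Red* had 2 egg libraries, and so did White*, Fab2L (the same insertion in the line without either name) and w[1118] (no insertion). All 4 lines were labelled w[1118] in genotype, a mutant allele of the white gene, and Oregon-R in strain. The 8 head libraries used below came from adult males of the same 4 lines at an age of 4 days. RNA above 200 nt was depleted of ribosomal RNA and was not selected for poly(A). Nothing in the labels ties the 2 libraries of a line to separate egg collections, so each p-value below sets a difference against library-to-library spread that could be of technical origin. The extraction text attached to the egg libraries speaks of adult male heads, while their titles and sources name unfertilized eggs.

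A fly egg is filled during oogenesis by nurse cells, which supply messenger RNAs, ribosomes and histones for the first nuclear divisions. Yolk proteins are made in fat body and follicle cells and are taken up by the oocyte. Polycomb group proteins keep genes silent, through methylation of histone H3 by the PRC2 complex and through the PRC1 complex, and trithorax group proteins counteract them. An unfertilized egg makes little RNA of its own, so a level in it reflects what was deposited and what has since been degraded. Less RNA per egg, fewer intact eggs and altered RNA stability cannot be told apart in such bulk samples.

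The markers in the files were mainly those of eggs. The 20 maternal markers, among them bcd, osk, grk and png, summed to 2950 to 3110 FPKM in Red* eggs and 3280 to 3310 FPKM in White* eggs, against 31.9 to 37.3 FPKM in heads, which were scaled separately from eggs. The neuronal genes elav, nSyb and brp were at or below 0.115 FPKM in the egg libraries. They belong to a list of 20 neuron and photoreceptor markers. Of that list 4 passed the filter, among them ninaE, Arr1 and Arr2, described below. Of 26 early zygotic genes, 16 were at 0 in all 8 egg libraries and 1, slam, passed the filter. Depth was 33.05 and 28.63 M recovered reads (M, mega) in Red* eggs, and 32.69 and 31.72 M in White* eggs. Red* replicate 2 stood apart: 0.339% of its reads lay on the mitochondrial genome, against 1.46% to 2.04% in the other 7 egg libraries. The SD of the log2 difference between replicates was 0.203 in Red* and 0.119 in White*. The labels could not be checked by the reporter in eggs, because w was near 0 there, at 0.0362 and 0.0133 FPKM (3 and 1 reads) in Red* eggs and 0.0653 and 0.0279 FPKM (5 and 2 reads) in White* eggs. In heads w stood at 9.83 and 11.7 FPKM in Red* and at 2.36 and 2.28 FPKM in White*.

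Of the 6589 genes, 1443 were called higher in Red* eggs (21.9%) and 1515 lower (23.0%), so 44.9% were called in all, at an adjusted p under 0.05 by limma with Benjamini-Hochberg adjustment on log2(FPKM + 1). Most called differences were small: their median size was 0.31 on the log2 scale, and 2400 of the 2958 (81.1%) stayed under 0.5. Genes called with a log2 difference of at least 1 numbered 47 higher (0.713%) and 44 lower (0.668%) in Red*, and these 91 are called large below. The 2 Red* values and the 2 White* values did not overlap in any of the 2958 called genes, nor in 76.9% of all genes tested. Called genes that were higher had a median length of 2324 nt and lower ones 1698 nt, against 2031 nt over all genes tested.

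The balance of the calls rested on the scaling. The median log2 difference over all genes was -0.02 as deposited. Scaling each library to its FPKM sum without the 20 most abundant genes moved that median to 0.17, a shift of 0.19, and the calls to 2894 higher and 432 lower. The share of calls that were higher was 87.0% in that case and 48.8% as deposited, while all 91 large genes were still called. Without White* replicate 2 the counts fell to 672 higher and 452 lower, and 68 of the 91 large genes were still called. Without White* replicate 1 the counts were 1121 and 980, and 82 of the 91 were still called. Members of the gene lists described below that were called numbered 430, and 155 without White* replicate 2. The directions below are relative to the deposited scaling.

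**Figure D1:**
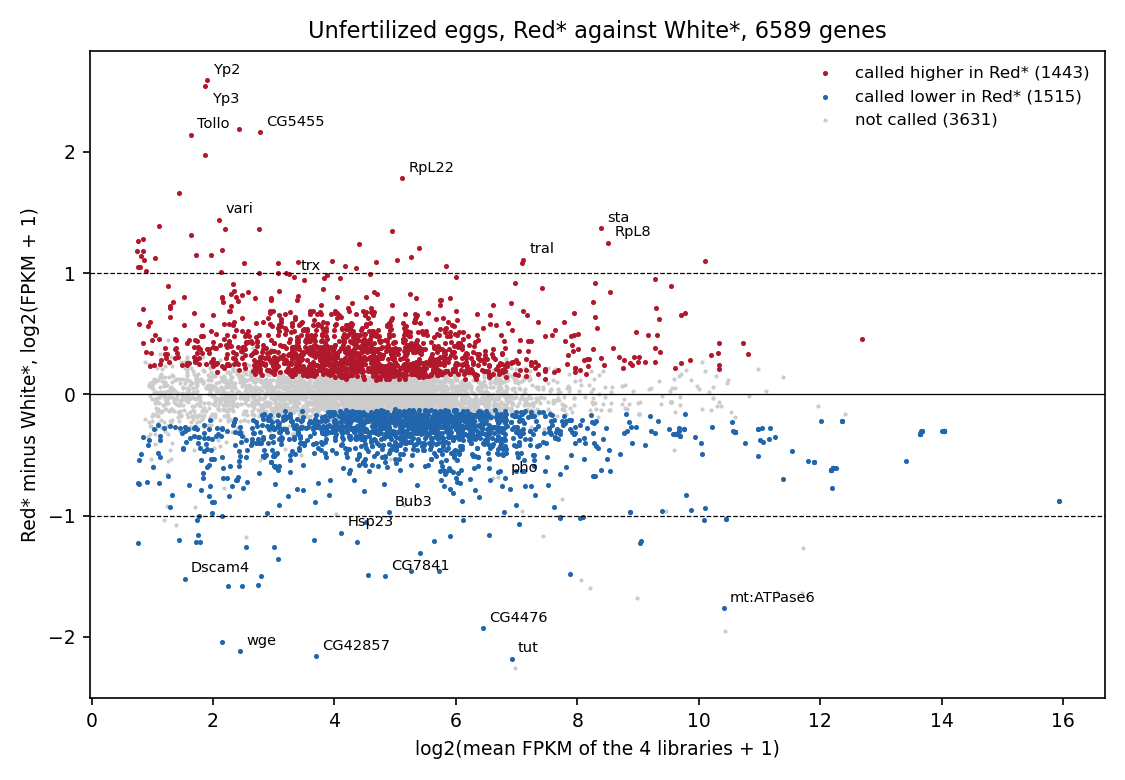
Difference between Red* and White* eggs (Red* minus White*, log2(FPKM + 1), vertical axis) against the mean level over the 4 libraries (horizontal axis) for 6589 genes, with called genes coloured by direction. Most of the 1443 higher and 1515 lower genes lie within 0.5 of zero, and most of the labelled genes lie at or beyond the dashed lines at 1 and -1.

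Of the genes named below, Yp1, Yp2, Yp3, fit, BomS2, Arr1, Arr2, Tollo, CG30428 and Slc45-1 passed the filter through Red* alone, and Dscam4, RpS10a, Mst57Dc and Sox102F through White* alone. The filter fixed the direction of these genes, so their values are a description, and their calls support nothing.

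Among the genes with the largest positive differences, the yolk protein genes were nearly absent from White* eggs. Yp2 stood at 5.06 and 5.69 FPKM in Red* eggs, at 0.095 and 0.0203 FPKM in White*, at 1.84 and 1.34 FPKM in Fab2L and at 0.579 and 0.815 FPKM in w1118. Both Red* values lay above the other 6 and both White* values below them, and Yp2 differed by 2.59 ± 0.12 (SE). Yp3 had 5.6 and 4.9 FPKM in Red* eggs against 0.0987 and 0.0528 FPKM in White* eggs, a difference of 2.54. Yp1 had 1.13 and 1.51 FPKM in Red* eggs against 0.0382 and 0 FPKM in White* eggs, and again the lines did not overlap. The yolk protein receptor gene yl, which is expressed in the germ line, had 386 and 375 FPKM in Red* eggs against 273 and 246 FPKM in White* eggs (0.55, adjusted p = 0.0013, limma), and it is the only gene of the yolk list that passed the filter in both lines.

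Genes of fat body and of its immune response were also present at low levels. The gene fit, a female fat body transcript, had 1.34 and 1.47 FPKM in Red* eggs and was at 0 in both White* libraries. BomS2, a Bomanin peptide gene induced by the Toll pathway, had 1.39 and 1.7 FPKM in Red* eggs against 0 and 0.0895 FPKM in White* eggs. The lipoprotein gene apolpp had 3.46 and 2.44 FPKM in Red* eggs against 1.49 and 1.42 FPKM in White* eggs (0.67, adjusted p = 0.00466, limma). Besides fit and apolpp, ppl was the only fat body marker that passed the filter, and it was not called (-0.02). The summed level of the 14 fat body markers was 28.5 to 30.5 FPKM in Red* eggs, 25.0 to 25.6 FPKM in White* eggs, 21.9 to 24.2 FPKM in Fab2L eggs and 21.8 to 22.5 FPKM in w1118 eggs. Whether carry-over of such tissue has a part in the yolk gene values was not tested.

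Photoreceptor genes showed a further set of low values that differed. The opsin gene ninaE had 5.73 and 5.41 FPKM in Red* eggs, 1.45 and 1.66 FPKM in White* eggs, 0.793 and 0.762 FPKM in Fab2L eggs and 7.06 and 6.2 FPKM in w1118 eggs. It differed by 1.36 (adjusted p = 4.28e-05, limma), with w1118 on the side of Red* and Fab2L on that of White*. The arrestin gene Arr2 had 3.51 and 3.37 FPKM in Red* eggs against 0.715 and 0.871 FPKM in White* eggs. Its relative Arr1 had 1.87 and 1.78 FPKM against 0.348 and 0.252 FPKM in the same order, and neither gene overlapped between the lines. In heads ninaE stood at 7380 and 8590 FPKM in Red* and at 10100 and 11000 FPKM in White*. Of 20 neuron and photoreceptor markers only 4 passed the filter, of which norpA was not called (-0.05), and the list summed to 27.3 to 28 FPKM in Red* eggs, 17.3 to 18.4 FPKM in White*, 16.6 to 18.3 FPKM in Fab2L and 26.1 to 26.5 FPKM in w1118. The part of head RNA in these values was not tested.

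Markers of testis, gut and muscle were summed in the same way. Testis and sperm markers, 21 genes of which none passed the filter, summed to 0.47 to 0.481 FPKM in Red* eggs and 0.429 to 0.489 FPKM in White* eggs. Their sums were 3.03 to 3.04 FPKM in Fab2L eggs and 1.43 to 1.51 FPKM in w1118 eggs. Gut enzymes summed to 1.35 to 1.82 FPKM in Red* eggs and 0.582 to 0.589 FPKM in White* eggs. Both lines lay below Fab2L (5.2 to 6.67 FPKM) and w1118 (4.86 to 5.48 FPKM). Muscle markers summed to 27.5 to 28.8 FPKM in Red* eggs and 30.8 to 33.2 FPKM in White* eggs. In Fab2L eggs they summed to 32.5 to 32.7 FPKM and in w1118 eggs to 30.8 to 31.8 FPKM. Mst57Dc, an accessory gland peptide gene of males, was at 0 in both Red* libraries and at 1.71 and 1.04 FPKM in White* eggs, and the list of seminal fluid and spermathecal genes had no tested member.

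Genes of a receptor, of cell junctions and of calcium release were among the large differences. Tollo, which encodes the Toll-8 receptor, had 4.18 and 3.92 FPKM in Red* eggs, 0.162 and 0.137 FPKM in White* eggs, 0.211 and 0.252 FPKM in Fab2L eggs and 1.18 and 1.19 FPKM in w1118 eggs. Red* was above and White* below the other 6 libraries, and Tollo differed by 2.14 ± 0.08 (SE). The septate junction gene vari had 4.9 and 5.68 FPKM in Red* eggs against 1.28 and 1.34 FPKM in White* eggs, but 14.2 and 14.7 FPKM in w1118 eggs. Here White* lay below the other 6 and Red* within their range. Itpr, the gene of the inositol trisphosphate receptor that releases calcium, had 3.72 and 3.41 FPKM in Red* eggs against 1.04 and 1.07 FPKM in White* eggs (1.15, adjusted p = 5.32e-05, limma).

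White* also stood apart for genes of unassigned or enzymatic function. CG5455 had 10.7 and 9.76 FPKM in Red* eggs, 1.43 and 1.58 FPKM in White* eggs, 12.3 and 11.8 FPKM in Fab2L eggs and 9.39 and 8.94 FPKM in w1118 eggs. The 6 libraries other than White* lay together, and CG5455 differed by 2.16 ± 0.06 (SE; adjusted p = 3.62e-06, limma). CG30428 had 5.11 and 4.58 FPKM in Red* eggs against 0.555 and 0.431 FPKM in White* eggs. CG7601 had 43.9 and 42.6 FPKM in Red* eggs against 15.9 and 16.8 FPKM in White* eggs, and Naa40, an N-terminal acetyltransferase gene, 49.5 and 53.5 FPKM against 22.2 and 23.7 FPKM. In each of these the White* values were below those of the other 6 libraries.

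Among the genes that were lower in Red* eggs, wge (winged eye), which encodes a chromatin protein of the bromo-adjacent homology class, showed the reverse layout. It had 1.12 and 0.964 FPKM in Red* eggs, 8.19 and 7.5 FPKM in White* eggs, 8.64 and 8.33 FPKM in Fab2L eggs and 8.61 and 8.35 FPKM in w1118 eggs. The 6 libraries other than Red* lay within a narrow range, and wge differed by -2.12 ± 0.07 (SE; adjusted p = 3.62e-06, limma). CG7460 had 2.41 and 2.29 FPKM in Red* eggs against 9.09 and 8.8 FPKM in White* eggs, and CG7841 had 14.3 and 13.5 FPKM against 39.5 and 42.5 FPKM. In both genes Red* lay below all 6 other libraries.

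The germ line gene tut, whose protein acts with Bam in male germ cell differentiation, had the most negative difference of the called genes. It had 47.5 and 38.3 FPKM in Red* eggs, 190 and 204 FPKM in White* eggs, 170 and 192 FPKM in Fab2L eggs and 33.3 and 36.3 FPKM in w1118 eggs. Red* lay with w1118 and White* with Fab2L, and tut differed by -2.18 ± 0.11 (SE; adjusted p = 1.69e-05, limma). Dscam4, a cell adhesion gene, had 0.499 and 0.489 FPKM in Red* eggs, 3.29 and 3.28 FPKM in White* eggs and 0.0267 and 0.0185 FPKM in w1118 eggs. CG4476 had 39.1 and 31.6 FPKM in Red* eggs against 136 and 138 FPKM in White* eggs (-1.93, adjusted p = 1.65e-05, limma). CG42857 had 3.52 and 3.87 FPKM in Red* eggs against 19 and 21.2 FPKM in White* eggs.

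The other 2 lines placed the 91 large genes as follows. Both Red* libraries alone lay outside the other 6 in 26 genes, and both White* libraries alone did so in 18. Red* and White* lay outside at opposite ends in 30 genes, and neither line lay outside in 17. The Fab2L mean was nearer to White* than to Red* in 30 of the 47 higher and 29 of the 44 lower large genes. It lay outside both lines in 11 of the 47 and 2 of the 44. The large genes were chosen for a wide gap between Red* and White*, which favours places outside and at opposite ends. No share over all tested genes is given here. The filter itself fixed part of these counts: 38 genes passed through Red* alone, 34 of which were called higher, and 27 passed through White* alone, 19 of which were called lower. Of the 47 large higher genes 18 had passed through Red* alone, and of the 44 large lower genes 3 had passed through White* alone.

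**Figure D2:**
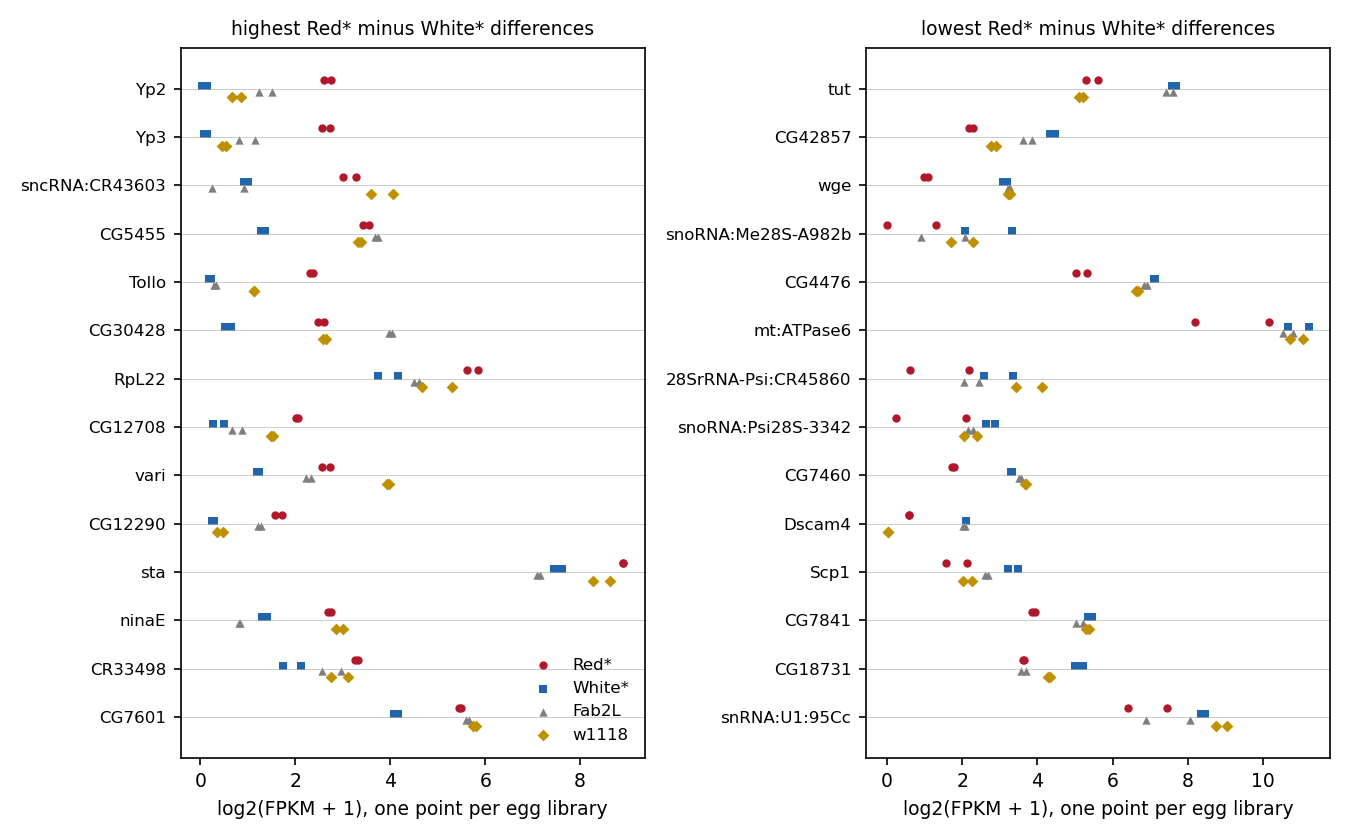
Level in each of the 8 egg libraries (log2(FPKM + 1), horizontal axis) for the 14 genes with the highest and the 14 with the lowest difference, with Red*, White*, Fab2L and w1118 marked by colour and shape. Red* and White* points separate in every gene because only genes without overlap were chosen. Fab2L and w1118 fall on either side of them from gene to gene. The 2 Red* points of mt:ATPase6 lie far apart.

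Several of the large negative differences rested in part on Red* replicate 2. mt:ATPase6, a subunit of the mitochondrial ATP synthase, had 1140 and 293 FPKM in Red* eggs against 1630 and 2370 FPKM in White* eggs. It differed by -1.76 (adjusted p = 0.0275, limma), by -0.79 without Red* replicate 2, and it was not called without White* replicate 1 (adjusted p = 0.0555) or White* replicate 2 (adjusted p = 0.15). The difference of 28SrRNA-Psi:CR45860, -1.58, moved to -0.8 without Red* replicate 2 and to -1.19 without White* replicate 2. That of snoRNA:Me28S-A982b, -2.04, moved to -1.38 without Red* replicate 2 and to -1.41 without White* replicate 2. This snoRNA had only 4 and 0 reads in Red* eggs and 8 and 21 reads in White* eggs.

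Of 20 tested genes of the Polycomb group complexes, 4 were called higher and 1 lower, neither above the share of all genes (21.9% and 23.0%). The list's median was 0.04, against -0.02 over all genes. Counts of the lists below are to be read beside the same shares. E(z), the methyltransferase of PRC2, had 38.3 and 38.9 FPKM in Red* eggs and 32.5 and 37.3 FPKM in White* eggs, a difference of 0.14 that was not called (adjusted p = 0.0997, limma). Pc, the chromodomain subunit of PRC1, had 13.8 and 13.9 FPKM in Red* eggs and 14.6 and 14.6 FPKM in White* eggs (-0.07, adjusted p = 0.365). ph-p, another PRC1 subunit, did not pass the filter, at 0.957 and 0.943 FPKM in Red* eggs and 0.656 and 0.778 FPKM in White* eggs.

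Sce, the RING-type ubiquitin ligase of PRC1, had 22 and 19.9 FPKM in Red* eggs against 14.7 and 13.5 FPKM in White* eggs, without overlap (0.54, adjusted p = 0.00195, limma). The PRC1 partner RYBP differed by 0.35, and the PRC2 subunits Su(z)12 and esc by 0.28 and 0.22. The single lower gene was sxc, the O-GlcNAc transferase, at 146 and 108 FPKM in Red* eggs against 178 and 188 FPKM in White* eggs (-0.54, adjusted p = 0.0132, limma), and its call was lost without White* replicate 2 (adjusted p = 0.0843). Without White* replicate 2 the list gave 2 higher and 0 lower calls. Scaled to the FPKM sum, 11 genes of the list were called higher and 1 lower, and E(z) passed the threshold at 0.34 (adjusted p = 0.00383).

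Of 9 tested genes for proteins that bring Polycomb complexes to DNA, 6 were called higher and 1 lower, with a median of 0.19. The higher ones were Spps (0.38), crol (0.38), z (0.32), cg (0.21), phol (0.19) and psq (0.17). The DNA-binding subunit pho, a gene of chromosome 4, was lower, at 106 and 66 FPKM in Red* eggs against 130 and 141 FPKM in White* eggs (-0.69, adjusted p = 0.0176, limma). Its Red* values differ widely: the difference was -0.35 without Red* replicate 2, and it was not called without White* replicate 2 (adjusted p = 0.104). Spps also lost its call without White* replicate 2 (adjusted p = 0.137), where the list gave 2 higher and 0 lower calls, and without White* replicate 1 it gave 3 and 0.

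The trithorax group held 22 tested genes, 5 called higher and 4 lower, near the shares of all genes (21.9% and 23.0%). Its median was 0.1. trx, the H3 lysine methyltransferase that gives the group its name, had 12.7 and 12.2 FPKM in Red* eggs, 5.91 and 5.83 FPKM in White* eggs, 12.6 and 12.6 FPKM in Fab2L eggs and 12.3 and 12.8 FPKM in w1118 eggs. White* alone stood apart, and trx differed by 0.97 ± 0.05 (SE; adjusted p = 1.84e-05, limma). Bap111, a subunit of the Brahma remodelling complex, had 19.7 and 20.3 FPKM in Red* eggs against 13.7 and 11.4 FPKM in White* eggs. The ATPase of that complex, brm, differed by -0.26, and kis, Utx and Set1 by -0.23, -0.2 and -0.27. The counts were 2 higher and 1 lower without White* replicate 2, and 15 and 0 under the sum scaling.

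Genes of insulator proteins, which include those that bind Fab-7, gave 2 higher and 2 lower calls of 14, with 1 and 1 without White* replicate 2 and 9 and 1 under the sum scaling. The boundary factor pita differed by 0.37 and dwg by 0.48, while CTCF (0.05), Cp190 (0.06) and su(Hw) (-0.08) were not called. The lower pair was wge and Phs, at -0.14, whose value was 0.06 under the sum scaling. The list counts wge, although it is described above as a chromatin protein and not as an insulator protein. The heterochromatin list gave 3 higher and 7 lower calls of 22, with a median of -0.08. Su(var)3-9, an H3 lysine 9 methyltransferase, had 18.9 and 18.7 FPKM in Red* eggs against 24.4 and 24.3 FPKM in White* eggs (-0.35, adjusted p = 0.00109, limma). The histone demethylase gene Kdm4A differed by -0.2. Without White* replicate 2 this list gave 2 higher and 2 lower calls, without White* replicate 1 it gave 1 and 4, and under the sum scaling it turned to 7 higher and 0 lower calls with a median of 0.12.

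The piRNA pathway, which silences transposons in the germ line and is loaded into eggs by the mother, had 2 genes called higher and 10 lower of 28 tested, with a median of -0.13. piwi had 50.8 and 52.3 FPKM in Red* eggs against 64.7 and 66 FPKM in White* eggs, and its difference was -0.34 (adjusted p = 0.00142, limma). Other lower members were Hen1 (-0.42), which methylates piRNA ends, SoYb (-0.38), Gasz (-0.34), rhi (-0.3), nxf2 (-0.28) and moon (-0.27). AGO3, the ping-pong partner of Aub, had 153 and 77 FPKM in Red* eggs against 177 and 192 FPKM in White* eggs (-0.76), and lost its call without Red* replicate 2 (-0.26, adjusted p = 0.0513, limma). The list's direction was tied to the scaling: summed without the 20 most abundant genes, it gave 7 higher and 3 lower calls and a median of 0.07. piwi was then not called (adjusted p = 0.121). Without White* replicate 2 there were 0 higher and 5 lower calls.

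In the miRNA and siRNA machinery 3 of 14 genes were called higher and 3 lower, with 2 and 1 without White* replicate 2 and 4 and 1 under the sum scaling. AGO2, the slicer of the siRNA pathway, had 43.3 and 52.7 FPKM in Red* eggs, 29.9 and 29.8 FPKM in White* eggs, 26.9 and 25.3 FPKM in Fab2L eggs and 32.5 and 33.6 FPKM in w1118 eggs. Both Red* values lay above all others, and AGO2 differed by 0.66 (adjusted p = 0.00128, limma), while Dcr-2, which makes siRNAs, differed by -0.18. Ranbp21 was higher by 0.58. The 3 higher and 3 lower calls of 14 lay near the shares of all genes (21.9% and 23.0%).

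Messenger RNAs of germ plasm and body axes gave 5 higher and 6 lower calls of 32, both shares below those of all genes (21.9% and 23.0%), with a median of 0. Under the sum scaling the list gave 17 higher and 1 lower call with a median of 0.2, and without White* replicate 2 it gave 2 and 1. The pole plasm organiser osk had 438 and 418 FPKM in Red* eggs against 510 and 525 FPKM in White* eggs (-0.27, adjusted p = 0.00531, limma), and bcd and grk were not called (-0.1 and -0.04). pgc, which represses transcription in pole cells, averaged 267 ± 91.9 FPKM in Red* eggs and 398 ± 21.5 FPKM in White* eggs (SD, n = 2 each). Its difference of -0.62 was -0.26 without Red* replicate 2, and it was not called without White* replicate 2 (adjusted p = 0.144). osk was not called under the sum scaling (-0.07, adjusted p = 0.361) or without White* replicate 2 (adjusted p = 0.0526).

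Egg activation and clearance of maternal RNA gave 7 higher and 5 lower calls of 30, with 4 and 1 without White* replicate 2 and 16 and 1 under the sum scaling. For comparison, 21.9% of all genes were called higher and 23.0% lower. The translational regulator tral, a component of egg RNA particles, had 185 and 191 FPKM in Red* eggs, 88.3 and 85.1 FPKM in White* eggs, 97.6 and 92.9 FPKM in Fab2L eggs and 101 and 101 FPKM in w1118 eggs. Red* lay far above the other 6, and tral differed by 1.11 ± 0.05 (SE; adjusted p = 1.45e-05, limma). Its partner me31B, a DEAD-box helicase gene, went the other way, with 2110 and 1880 FPKM in Red* eggs against 2520 and 2640 FPKM in White* eggs (-0.37, adjusted p = 0.012). The kinase gene png, which starts translation at egg activation, had 78 and 76 FPKM in Red* eggs against 57.6 and 49.9 FPKM in White* eggs, while its partner plu differed by -0.26 and gnu was not called (0.06).

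Spindle checkpoint and meiosis genes gave 5 higher and 5 lower calls of 27, near the shares of all genes (21.9% and 23.0%), with 14 and 2 under the sum scaling and 3 and 2 without White* replicate 2. Bub3 had 18.9 and 19.3 FPKM in Red* eggs, 37.8 and 38.8 FPKM in White* eggs, 21.4 and 17.9 FPKM in Fab2L eggs and 19.6 and 18.3 FPKM in w1118 eggs. White* alone was high, and Bub3 differed by -0.97 (adjusted p = 0.000253, limma), while its checkpoint partner mad2 had 159 and 174 FPKM in Red* eggs against 120 and 125 FPKM in White* eggs. The synaptonemal complex gene c(3)G had 40.6 and 40.7 FPKM in Red* eggs against 69.2 and 69.7 FPKM in White* eggs (-0.76). Incenp and aurB, of the chromosomal passenger complex, differed by 0.5 and 0.3. In the early cell cycle list, 7 of 26 genes were higher and 6 lower, among them Rbf (0.36) and Cdk1 (-0.44). That list gave 3 and 1 when White* replicate 2 was left out, 2 and 2 when White* replicate 1 was, and 12 and 1 under the sum scaling.

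Replication-dependent histone genes, which lie in a tandem array whose copies share reads, were lower in 84 of 108 tested copies and higher in none, with a median of -0.33. These copies are not separate measurements, since 9 of 22 His4 copies had the same rounded FPKM. Their share of all reads was 19.9% and 19.4% in Red* eggs, and 22.1% and 23.0% in White* eggs. Without Red* replicate 2 the lower copies numbered 49, and without White* replicate 2 they numbered 21. Under the sum scaling 38 copies were lower and none higher, with a median of -0.13. Replacement histones gave 2 calls of 7, both higher: cid, the centromeric histone, had 49.6 and 51.1 FPKM in Red* eggs against 29.5 and 28.1 FPKM in White* eggs (0.79, adjusted p = 0.00169, limma). His3.3A had 162 and 175 FPKM in Red* eggs against 110 and 98.1 FPKM in White* eggs, while its sister gene His3.3B was not called (0.03).

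Cytosolic ribosomal protein genes leaned to higher values, with 40 of 81 called higher, 12 lower and a median of 0.2. RpL22 had 56.5 and 48.4 FPKM in Red* eggs, 17 and 12.4 FPKM in White* eggs, 23.2 and 21.7 FPKM in Fab2L eggs and 38.7 and 24.6 FPKM in w1118 eggs. It differed by 1.78 ± 0.2 (SE; adjusted p = 0.000919, limma), with Red* on top and White* at the bottom. sta, which encodes the small subunit protein SA, had 478 and 481 FPKM in Red* eggs against 196 and 173 FPKM in White* eggs, and RpL8 had 523 and 496 FPKM against 242 and 188 FPKM. The lower members included highly abundant ones, such as RpL41, with 9050 and 8600 FPKM in Red* eggs against 11600 and 14400 FPKM in White* eggs. RpS10a, a paralog with low levels, was the only large lower member, at 0.565 and 0.724 FPKM in Red* eggs against 3 and 2.56 FPKM in White* eggs, and at 14.3 and 14.4 FPKM in w1118 eggs. The list gave 20 higher and 2 lower calls without White* replicate 2, and 59 and 7 under the sum scaling.

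Nuclear genes of oxidative phosphorylation gave 29 higher and 8 lower calls of 62, with a median of 0.22. UQCR-C2, a core subunit of complex III, had 56.3 and 58.5 FPKM in Red* eggs against 27.8 and 21.2 FPKM in White* eggs (1.21, adjusted p = 0.000919, limma). SdhB, of complex II, had 23.5 and 23 FPKM in Red* eggs against 11.5 and 9.87 FPKM in White* eggs. The counts of the list were 17 higher and 1 lower without White* replicate 2, and 48 and 2 under the sum scaling. Transcripts of the mitochondrial genome had 0 higher and 2 lower calls of 15, with a median of -1.53 that was -0.33 without Red* replicate 2. Mitochondrial ribosomal protein genes gave 9 higher and 10 lower calls of 70 with a median of 0, but 33 and 3 under the sum scaling and 4 and 2 without White* replicate 2. Proteasome genes gave 11 higher and 3 lower of 34, with 20 and 0 under the sum scaling and 3 and 1 without White* replicate 2.

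Heat shock genes gave 7 higher and 2 lower calls of 14. The small chaperone gene Hsp23 had 10.3 and 9.25 FPKM in Red* eggs, 22.7 and 22.8 FPKM in White* eggs, 21.9 and 22.8 FPKM in Fab2L eggs and 23.6 and 24.5 FPKM in w1118 eggs. Red* lay below the other 6, and Hsp23 differed by -1.14 (adjusted p = 1.87e-05, limma). Of the 7 higher genes 6 were Hsp70 copies, which can share reads, such as Hsp70Bbb with 5.63 and 5.36 FPKM in Red* eggs against 2.84 and 2.39 FPKM in White* eggs. Detoxification genes gave 2 higher and 9 lower calls of 19, and 0 and 4 without White* replicate 2 or 4 and 3 under the sum scaling. The neighbouring glutathione transferase genes GstE6, GstE7 and GstE8 were all lower, with differences of -0.85, -1.05 and -0.8. GstE7 had 14.6 and 13.1 FPKM in Red* eggs, 28.7 and 30.8 FPKM in White* eggs, 21.2 and 21.9 FPKM in Fab2L eggs and 11.1 and 10.9 FPKM in w1118 eggs, so White* was highest and Red* lay between Fab2L and w1118.

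In the Imd pathway of innate immunity 4 of 16 genes were higher and 6 lower, and 1 and 1 without White* replicate 2 or 6 and 1 under the sum scaling. The adaptor gene Fadd had the widest difference, with 30.7 and 28.5 FPKM in Red* eggs against 49.5 and 51.2 FPKM in White* eggs (-0.75, adjusted p = 0.000132, limma). Fab2L (18.9 and 19.9 FPKM) and w1118 (12 and 12 FPKM) lay below both lines for Fadd. The counts of this list and of those that follow stand beside 21.9% higher and 23.0% lower over all genes. In the dorsal group, the Toll pathway that sets the dorsoventral axis, 2 of 14 were higher and 5 lower, including the ligand gene spz (-0.41) and its receptor gene Tl (-0.32). This list gave 0 higher and 3 lower calls without White* replicate 2, and 7 and 1 under the sum scaling. Eye pigment genes gave 4 higher and 4 lower calls of 11, with 1 and 0 without White* replicate 2 and 5 and 0 under the sum scaling. Dosage compensation and sex determination gave 2 and 2 of 10, with 1 and 0 without White* replicate 2 and 3 and 0 under the sum scaling. DNA replication gave 6 higher and 3 lower of 24, with 2 and 0 when White* replicate 2 was left out, 2 and 1 when White* replicate 1 was, and 15 and 0 under the sum scaling.

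Among genes of small nuclear and nucleolar RNAs more were called lower than higher, but these RNAs lie below the labelled size limit of 200 nt in large part, so their FPKM is no measure of their level in eggs. Of 22 snRNA genes 3 were higher and 10 lower (median -0.58), with 0 and 1 without White* replicate 2, and of 45 snoRNA genes 0 were higher and 22 lower (median -0.72). Copies of U1 and U2 can share reads, such as snRNA:U1:21D with 367 and 265 FPKM in Red* eggs against 750 and 714 FPKM in White* eggs. The longer snRNA:7SKa, a regulator of transcription elongation, had 7930 and 7320 FPKM in Red* eggs against 5820 and 5270 FPKM in White* eggs (0.46, adjusted p = 0.00712, limma). Long noncoding RNA genes had 5 higher and 18 lower calls of 58, with a median of -0.17. Under the sum scaling the calls were 7 higher and 9 lower, with a median of -0.05. Of the 2262 genes in the list, 1468 were at 0 in all 8 egg libraries. No tRNA gene passed the filter.

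**Figure D3:**
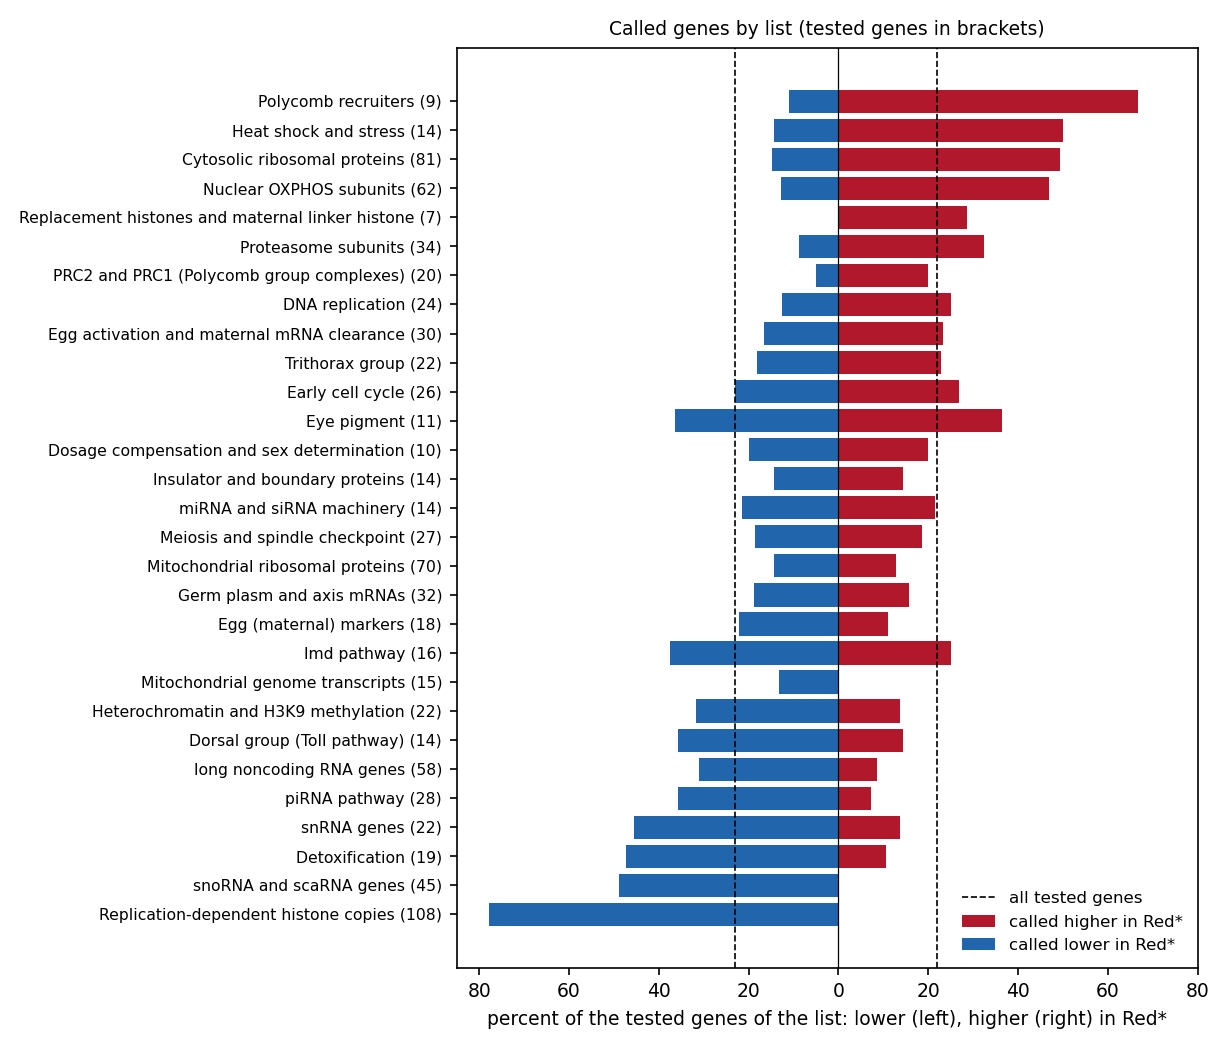
Percent of the tested genes of each list with at least 7 tested genes that were called higher (right) or lower (left) in Red* eggs, with dashed lines at 21.9% and 23.0% for all tested genes and the number tested in brackets. Polycomb recruiters, heat shock, ribosomal protein and oxidative phosphorylation genes reach furthest to the right, and histone copies, snoRNA and detoxification genes furthest to the left; the lists were scaled as deposited.

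The nuclear chromosomes differed in their share of calls. On the X, 420 of 1138 genes were higher (36.9%) and 187 lower (16.4%), with a median of 0.09, and the median stayed between 0.07 and 0.1 when each library was left out in turn. The X counts were 221 and 58 without White* replicate 2, and 663 and 51 with a median of 0.27 under the sum scaling. On chromosome 4, 2 of 54 genes were higher and 43 lower (79.6%), with a median of -0.43. Its median deviation from the 8-library mean was -0.07 and -0.32 in Red* eggs and 0.16 and 0.24 in White* eggs, so Red* replicate 2 lay lowest. Without that library the median was -0.28, with 2 higher and 31 lower genes, and without White* replicate 2 there were 11 lower ones. The mitochondrial genome, described above, had a median of -1.53 over 15 genes. The arms 2L, 2R, 3L and 3R had medians between -0.06 and -0.01, with 185 higher and 340 lower of 1202 on 2L and 329 higher and 307 lower of 1546 on 3R. Of the 47 large higher genes 17 lay on the X, which held 1138 of the 6589 tested genes. Among the 17 were Yp1, Yp2, Yp3, RpL22, sta and the neighbouring pseudogenes CR33487, CR33491 and CR33496. Yp1, Yp2 and Yp3 had passed the filter through Red* alone, as had others of the 17. Also among them was fs(1)Ya, which encodes a nuclear envelope protein needed for the first embryonic divisions.

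**Figure D4:**
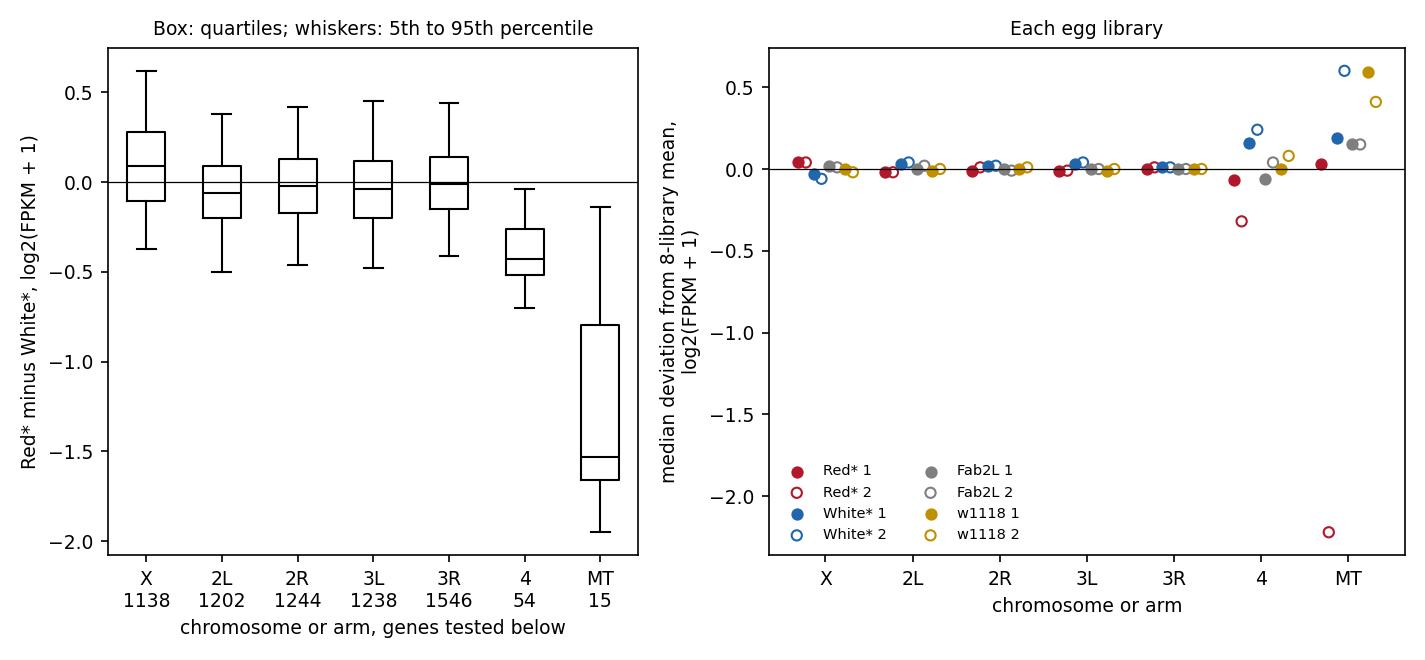
Left, Red* minus White* differences of the tested genes by chromosome arm (log2(FPKM + 1); box, quartiles and median; whiskers, 5th to 95th percentile). Right, median deviation of each egg library from the 8-library mean by arm, with replicate 1 filled and replicate 2 open; the X box sits above zero at a median of 0.09, and Red* replicate 2 sits lowest on chromosome 4 and the mitochondrial genome.

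The same contrast in male heads gave 105 higher and 364 lower calls of 10777 genes (4.35%). Depth in heads differed by line, with 25.18 and 36.6 M reads in Red* and 16.05 and 13.8 M in White*, and its part in these calls was not tested. Of 6291 genes tested in both tissues, 2831 were called in eggs and 263 in heads, and 196 in both, which is 6.92% of the egg calls and 74.5% of the head calls. Only 19 of the 196 had the same direction, and 172 were higher in Red* eggs and lower in Red* heads. The median difference of these 172 was 0.48 in eggs and -0.64 in heads, and 24 of the 81 ribosomal protein and 13 of the 62 oxidative phosphorylation genes were among them. The difference between the tissues was itself called in 2398 of the 6291 genes (38.1%).

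The 172 genes also varied between replicates of a line. They were higher in replicate 1 than in replicate 2 in 71 cases (41.3%) in Red* eggs, 162 (94.2%) in White*, 118 (68.6%) in Fab2L and 167 (97.1%) in w1118. Over all genes tested these shares were 50.0%, 53.7%, 49.2% and 48.2%. The part of this variation between replicates in the differences between the lines was not tested.

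Among genes with the same direction in both tissues, CG18731 was lower in Red* in both tissues. It had 11.4 and 11.3 FPKM in Red* eggs against 31.1 and 36.1 FPKM in White* eggs, and 13.8 and 12.3 FPKM in Red* heads against 23.1 and 22.1 FPKM in White* heads. Ttc19, a mitochondrial complex III factor, had 6.73 and 6.68 FPKM in Red* eggs against 2.65 and 2.62 FPKM in White* eggs, and 21.9 and 22 FPKM in Red* heads against 14 and 13.4 FPKM in White* heads. Slc45-1, a sugar transporter gene, had 1.59 and 1.38 FPKM in Red* eggs against 0.167 and 0.129 FPKM in White* eggs and differed by 0.57 in heads. The glutathione transferase gene GstO2 was higher by 0.43 in eggs and 0.96 in heads, and the neuronal capsid gene Arc1 differed by -0.34 in eggs and -1.58 in heads.

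Only 5 genes were lower in Red* eggs and higher in Red* heads, and wge had the widest gap of these. It had 25.6 and 19.8 FPKM in Red* heads against 12.1 and 8.97 FPKM in White* heads (1.04, adjusted p = 0.0253, limma), against its -2.12 in eggs. The other 4 were Catsup, whose end overlaps Ttc19, and PlexA, Sox102F and Slip1, which lie on chromosome 4. Tollo, with 5.23 and 4.82 FPKM in Red* heads and 5.43 and 4.7 FPKM in White* heads, was not called in heads (-0.01, adjusted p = 0.969, limma). Of the 85 large genes tested in heads, 19 were called there, 5 in the same and 14 in the opposite direction.

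**Figure D5:**
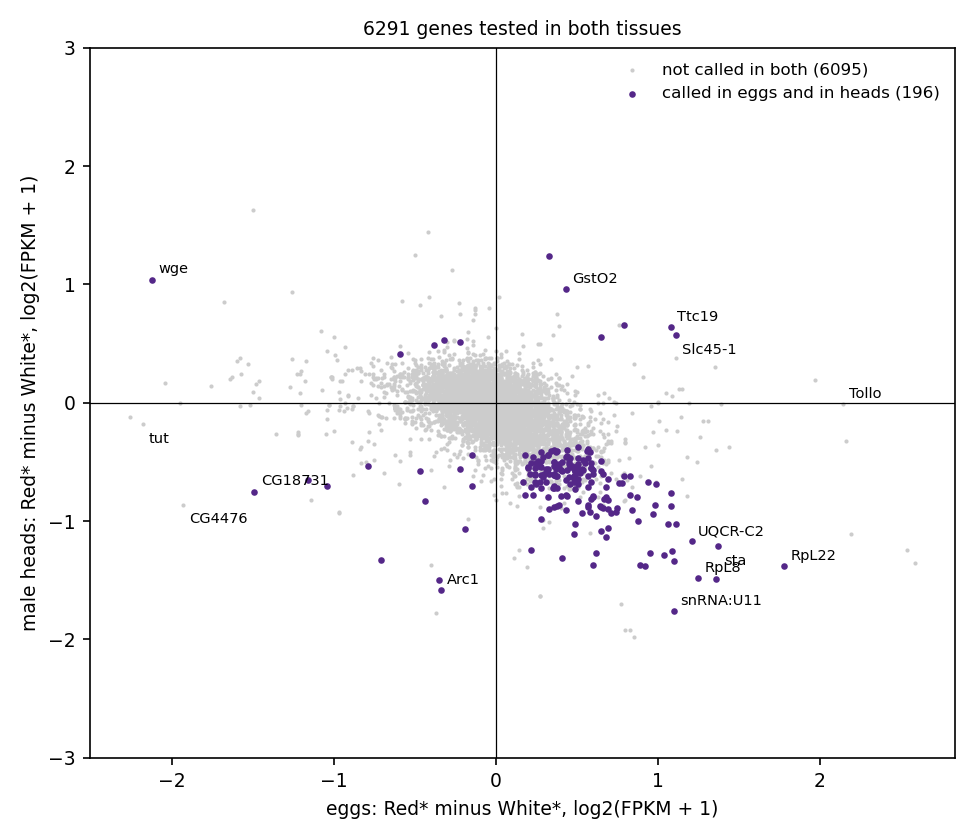
Red* minus White* difference in male heads (vertical axis) against that in eggs (horizontal axis), both log2(FPKM + 1), for the 6291 genes tested in both tissues, with the 196 genes called in both coloured. Most coloured points, 172 of 196, lie to the right of zero and below it; wge lies to the left and above.

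Some of the large genes lie side by side (coordinates of dm6). Naa40 (3R, 29724159 to 29724950; 1.13) is followed by CG18731 (29725027 to 29725690; -1.49) after 77 bp, and then by CG7601 (29735269 to 29736745; 1.35). The gene Pcd (29723163 to 29724226), which ends within Naa40 and can share reads with it, was lower, at 56.6 and 58.1 FPKM in Red* eggs against 100 and 99.2 FPKM in White* eggs. On 3L, Slc45-1 (9203065 to 9208853; 1.11) lies 3027 bp from CG4476 (9211880 to 9215256), which differed by -1.93. Differences of opposite sign thus stood next to each other at both places. Among the other pairs of large genes within 20000 bp, only BomS2 (1.28) and GstE7 (-1.05) had opposite signs. The remaining pairs had the same sign, such as CG10654 (1.01) and tral (1.11) on 3L.

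The authors' deposited lists give variants found in the DNA of one line and not the other, 210 in Red* and 2425 in White*. Of the White* variants 2377 were single nucleotide changes on 3R between 18461552 and 31647777. In that interval 302 of 679 tested genes were called (44.5%, against 44.9% over all genes) and 14 were large (2.06%, against 1.38%). Tested genes with a White* variant in an annotated feature numbered 112, of which 45.5% were called and 4 (3.57%) were large. For Red* variants there were 56 such genes, of which 50.0% were called and 2 (3.57%) were large. Counts of 4 and 2 are too few to set against the 1.38% of all genes. Mst57Dc and Dscam4, named next, had passed the filter through White* alone. CG5455 (26461527 to 26470008) held heterozygous White* variants in its promoter, introns and coding sequence, and Mst57Dc (25829321 to 25829698) held them in its promoter and 3' UTR. Naa40 had a homozygous White* variant in its promoter, and Dscam4 had Red* variants in an intron and in coding sequence. CG12290 (1.39) had a White* variant in coding sequence, and snoRNA:CG32479-a (-1.36) had a Red* variant in its promoter. White* variants also lay in introns and coding sequence of Tl (-0.32) and in the promoter of spz (-0.41). Neither Tl nor spz was large. wge lies inside the 3R interval (22710883 to 22721150), as does ninaE (19886255 to 19888206). For wge it was Red*, not White*, that stood apart from the other egg libraries. For ninaE the White* values (1.45 and 1.66 FPKM) lay between those of Fab2L (0.793 and 0.762 FPKM) and Red*. Whether a White* variant bears on either gene was not tested.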

How the data were processed

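The deposited values were FPKM per gene, made by the authors. Per the submitters' processing notes, the tools used were STAR 2.5, DESeq2, Bowtie, Bowtie2, Picard and SAMtools with build dm6; which step used which tool, the counter and the strand setting are not given in the sources used here. The authors' deposited variant lists, with the authors' quality score per single nucleotide change and read counts with the change per small insertion or deletion, were used for positions and features only. Comparing the FPKM of low genes gave back whole reads for 16155 of 16157 genes (194891 of 194923 values within 0.001 of a whole number), and showed that the libraries were scaled by size factors of the median-of-ratios kind. Gene names and positions came from the reference tables for 17252 of 17558 gene IDs.

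The 8 egg libraries, 2 per line, entered one limma fit (limma 3.58.1, trend, R 4.3.3) on log2(FPKM + 1) with no covariates, and Red* minus White* was tested with Benjamini-Hochberg adjustment over 6589 genes at 0.05. Fold differences on this scale understate those of low genes. All 16 long RNA libraries entered the comparison with heads. The alternatives were a pseudocount of 0.1, other filters, other scalings, edgeR 4.0.16 and DESeq2 1.42.0 on the recovered reads, leaving out libraries and a replicate block. On reads simulated for Red* against White* eggs over 6585 genes, 97% of genes changed 1.5-fold were called. Of those changed 2-fold 98.5% were called and of those changed 4-fold 100%, with 8 false calls among 6385 unchanged genes. The changed genes were picked among those with a mean above 2 FPKM over the egg libraries, so these shares do not cover lower genes. Each gene was drawn independently, without shifts shared by the genes of a library. The rate of false calls therefore cannot be carried over to the real libraries.

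Genes named are the 14 highest and 14 lowest called differences without overlap, up to 4 called members of each of 40 gene lists, genes near 0 in 1 line, and w, wge, Pc, E(z) and ph-p; other genes were named after their values were seen. The members and lists were chosen with earlier results of these data known. Replicates of every line differed by more than sampling noise (chi-square per degree of freedom 13.06 to 51.49), so none was merged. 16 files were not used here.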

Additional observations from a re-analysis of the deposited data

Results flagged for a closer look

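For 12 named genes the difference between Red* and White* was called in both tissues with opposite signs. In these genes the difference between the tissues (eggs minus heads, log2) also passed the limma test over 6291 genes. Opposite signs in the same libraries nearly fix that outcome, so it adds no support. Of 127 named genes tested between the tissues, 104 passed it. 11 of the 12 were higher in Red* eggs and lower in Red* heads. Ribosomal protein genes gave RpL22 at 3.16, RpL8 at 2.74 and sta at 2.59. Genes of oxidative phosphorylation gave UQCR-C2 at 2.38, SdhB at 2.08, RFeSP, the iron-sulphur subunit of complex III, at 1.92 and ND-75, a subunit of complex I, at 1.61. The histone gene His3.3A stood at 1.59 and Sod1, the copper/zinc superoxide dismutase gene, at 1.06. CR33498 and snRNA:U11 both stood at 2.86. Without White* replicate 2 the egg difference of snRNA:U11 (adjusted p = 0.0746, limma) and that of Sod1 (adjusted p = 0.0794) were not called. wge alone went the other way, at -3.16. Read depth differs between the lines in heads, with 25.18 and 36.6 M reads (M, mega) in Red* and 16.05 and 13.8 M in White*, and its part in these values was not tested.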

How the results depend on the processing

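The counts kept their order of magnitude under a pseudocount of 0.1 (1433 higher, 1499 lower), no filter (1427, 1198), a filter over 8 libraries (1437, 1516), FPKM above 5 (1313, 1434), median-of-ratios scaling (1507, 1408), the 4 libraries alone (1258, 1163), edgeR (1566, 1393) and DESeq2 (1406, 1267). Scaled to the FPKM sum without the 20 most abundant genes they were 2894 higher and 432 lower, as the median of all genes moves. Leaving out 1 library gave 672 to 1279 higher and 452 to 1418 lower genes, 1563 to 2429 genes that differ between the tissues (an alternative chosen after seeing the data), 155 to 414 called list genes and a difference of -0.0406 to -0.00318 for w. Of 140 named genes, 43 lost their call without White* replicate 2 and 17 without Red* replicate 2. Under the sum scaling Phs (0.06) and gw (0.01) changed sign. With a replicate block the counts were 1481 and 1537 by the titles' numbers and 1517 and 1633 by the file labels' numbers, which swap the Red* libraries. Deviations of same-numbered libraries correlated at -0.2 to 0.378 by the titles' numbers and at -0.015 to 0.378 by the file labels' numbers. Not every pair was above 0.1 in either case and the labels tie no number to a shared batch, so the samples were not treated as paired. Depth limits genes near an FPKM of 0.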
